A study of Mus musculus with 6 samples.

Results

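Imprinted genes are transcribed wholly or mainly from a single parental copy, chosen by DNA methylation that was laid down in the egg or the sperm. The rows of 34 such genes were taken by symbol from a table of 23420 genes counted in mouse endothelial cells, and all 34 were found. They lie at 16 loci, of which 9 are represented here by 1 gene. By textbook knowledge 14 are expressed from the maternal copy and 19 from the paternal copy, and the Gnas locus makes transcripts of both kinds. The counts do not tell the parental copies apart, so the values below are levels of each gene and not measures of imprinting. The listed chromosome matched the annotation for all 34 genes.

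Whole mouse embryos of embryonic day 12.5 supplied the cells. Their genotype was Csf1r-iCre;RosatdTomato in both groups: the promoter of Csf1r, a receptor gene of myeloid cells, drives an improved Cre recombinase, which turns on a tdTomato reporter at the Rosa26 locus for good. Cells with the endothelial protein PECAM1 and without CD45, CD11b or KIT were sorted into a tdTom+ fraction, which had a history of Cre activity, and a tdTom- fraction, which had none that the reporter showed. There were 3 libraries in each group, made from 3 embryos. A tdTom- cell may also be one in which the reporter was not recombined.

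Many imprinted genes act on growth of the fetus and placenta. As a broad rule, paternally expressed genes such as Igf2 promote growth, and maternally expressed genes such as Cdkn1c, Grb10 and Igf2r restrain it. Most of them sit in clusters that share an imprinting control region, often with a long non-coding RNA expressed from the opposite copy to its protein-coding neighbours.

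Library totals ran from 8919887 to 11767956 counts, and 13142 genes were abundant enough to test. The 8 endothelial markers checked, Pecam1 and Cdh5 among them, summed to 6498 to 6774 CPM (counts scaled to the library total with TMM factors) in tdTom+ and 6381 to 6769 CPM in tdTom- libraries. By Xist and Ddx3y, the library numbered 3 was female in each group and the other 4 were male. The libraries are described as cells of 3 embryos divided by the sorter, but the labels do not name an embryo for each library. The p-values measure the spread between these libraries.

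The 34 imprinted genes took up 1.25% to 1.36% of all counts in every library, with overlapping groups. Between 31 and 33 of them had at least 1 count in a given library. Mest, Gnas, Igf2 and H19 together made up 71.6% to 76.1% of the counts of the 34. Levels ran over more than 3 orders on the CPM scale, from Mest, the gene with the second highest mean CPM in the table, down to Rasgrf1, with 0 counts in all 6 libraries. A count of 0 allows up to 3 counts, or 0.254 to 0.335 CPM, and such limits cover counting error only.

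**Figure D1:**
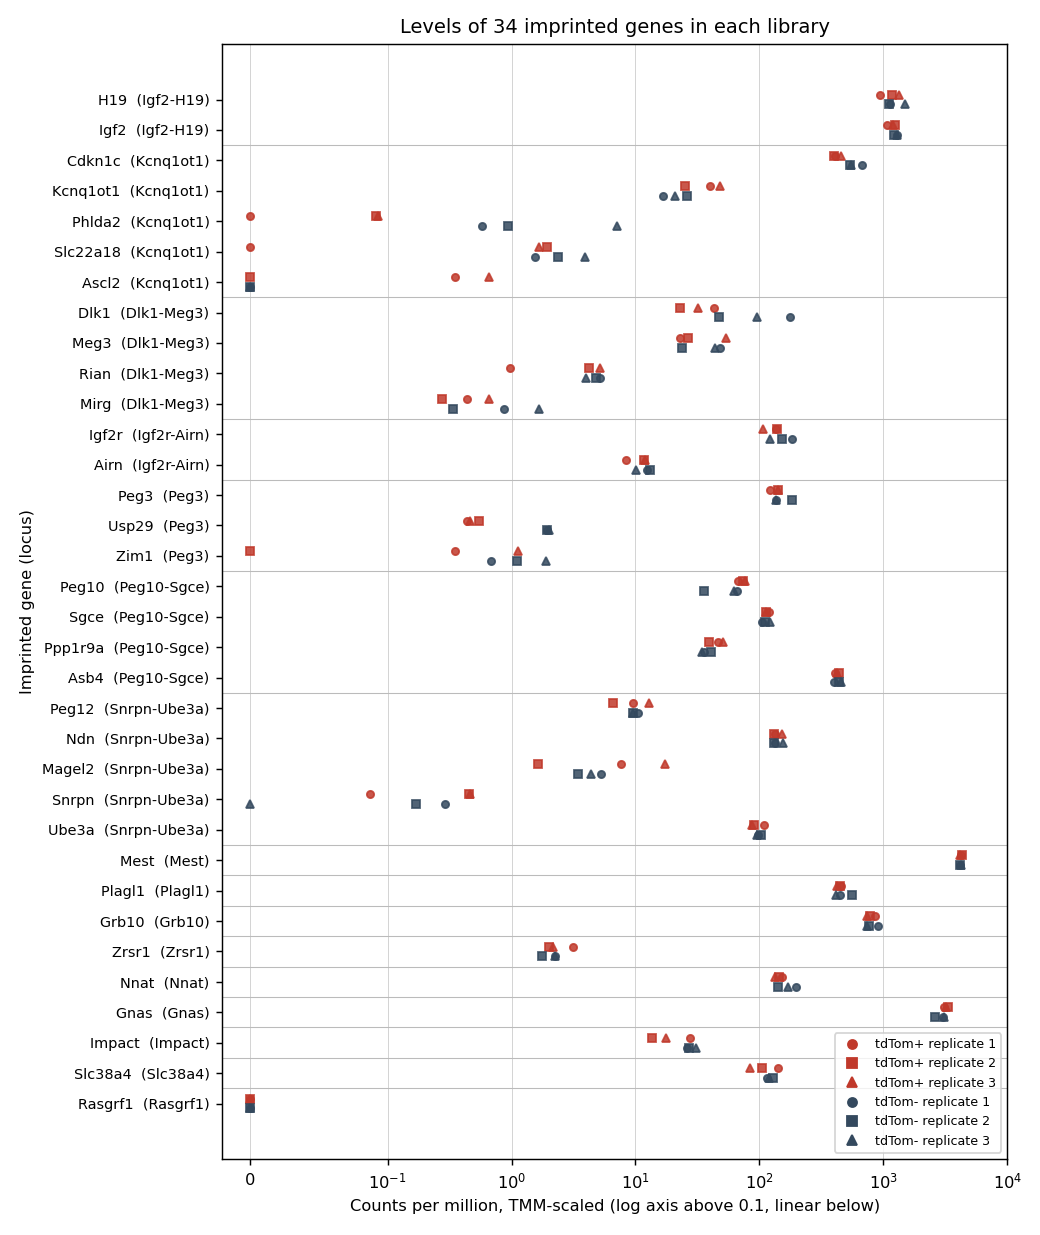
Level of each of the 34 imprinted genes in each library, in CPM (x axis, logarithmic above 0.1 and linear below), with genes grouped by locus (y axis), tdTom+ libraries in red and tdTom- libraries in dark blue, and the replicate number given by the marker. Mest lies farthest right in all 6 libraries and Rasgrf1 at 0 in all 6, and the colours separate without overlap for Cdkn1c, Phlda2, Dlk1, Usp29 and Peg10.

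Of the 29 imprinted genes abundant enough to test, Cdkn1c fell in tdTom+ cells, none rose and 28 did not pass (quasi-likelihood test of edgeR, p adjusted by Benjamini-Hochberg over all genes tested, threshold 0.05). Over all genes, 1.58% were called by this rule, 0.769% as higher and 0.814% as lower, so that 1 call of 29 is near the background. An unadjusted p under 0.05 was reached by 4 of the 29, or 13.8%, where 10.7% of all tested genes reached it. The 4 were Cdkn1c, Kcnq1ot1, Dlk1 and Usp29. The groups did not overlap in CPM for 4 of the 29, Cdkn1c, Dlk1, Usp29 and Peg10, which is again 13.8%, where 17.2% of all tested genes did not overlap. The first 3 of these were lower in tdTom+ cells, beside 9.35% of all tested genes, and Peg10 was higher, beside 7.88%.

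Other tests of the same counts called few imprinted genes as well. DESeq2 called Cdkn1c alone, as lower, where it called 3.68% of all genes and 2.03% as lower. In the authors' deposited table Cdkn1c and Phlda2 are below 0.05, both lower, where 3.32% of its genes are below 0.05 and 1.92% are lower.

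The log2 difference from the fit, always given as tdTom+ over tdTom-, was below 0 for 20 of the 29 tested genes and above 0 for 9. Its median was -0.11, beside -0.00026 over all tested genes. Among the 11 tested maternally expressed genes 10 were below 0, with a median of -0.18. Of these 10, H19, Meg3, Rian, Asb4, Ube3a and Grb10 changed sign when a library was left out, and 5 of the 11 lay within 0.2 of 0. Among the 17 tested paternally expressed genes 10 were below 0, with a median of -0.10. Of these 10, Peg12, Plagl1 and Slc38a4 changed sign when a library was left out, and 9 of the 17 lay within 0.2 of 0. The difference between the maternal and the paternal set was not tested. The fold change lay within 0.2 of 0 for 15 of the 29 genes, or 51.7%, beside 57.0% of all tested genes. The 4 non-coding RNAs below 0 were H19, Meg3, Rian and Airn, and the 1 above 0 was Kcnq1ot1.

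**Figure D2:**
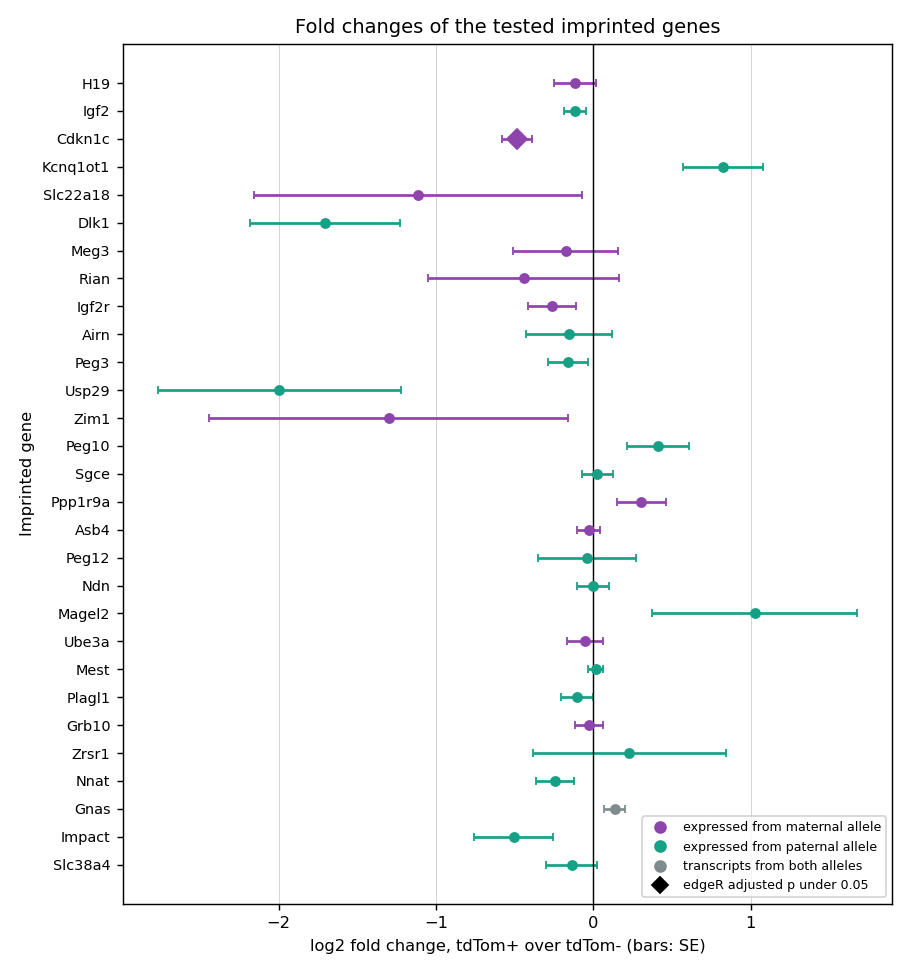
Log2 fold change of the 29 tested imprinted genes, tdTom+ over tdTom- (x axis; bars are the SE of the fit), coloured by the parental copy each is known to be expressed from. The diamond marks Cdkn1c, the gene that passed the adjusted threshold, at -0.48; Dlk1 and Usp29 lie farther below 0 with wider bars, and Kcnq1ot1 lies at 0.82.

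Cdkn1c, which encodes the cell cycle inhibitor p57, was the imprinted gene that passed (chromosome 7, 143458339 to 143461050, GRCm38, minus strand). It had 4652, 4337 and 4844 counts in tdTom+ replicates 1, 2 and 3 and 6990, 6323 and 4876 counts in tdTom- replicates 1, 2 and 3. On the CPM scale, which corrects for library size, the highest tdTom+ library had 452 CPM and the lowest tdTom- library had 535 CPM, so the groups did not overlap. The mean was 419 ± 29.5 CPM in tdTom+ against 586 ± 79.4 CPM in tdTom- cells (mean and SD, n = 3). The log2 difference was -0.48 ± 0.10 (SE, edgeR adjusted p = 0.0351), and the authors' deposited table gives -0.48 with an adjusted p of 0.000114. An unnamed gene model on the opposite strand, with no row in the count table, shares 30.7% of its exon bases. In bulk RNA, fewer cells expressing a gene and less RNA per cell cannot be told apart.

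The Cdkn1c call rested on most of the libraries. It ended without tdTom+ replicate 1 (edgeR adjusted p = 0.114) or 2 (0.108), and without tdTom- replicate 1 (0.152), 2 (0.0585) or 3 (0.0908), while the log2 difference stayed between -0.55 and -0.36. It held without tdTom+ replicate 3 (0.0375). Over the 13 alternatives run, its adjusted p ranged from 0.000113 to 0.152.

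The other genes of the Cdkn1c cluster on chromosome 7 either did not pass or were too low to test. Kcnq1ot1 is the long non-coding RNA expressed from the paternal copy, whose transcription silences Cdkn1c and its neighbours on that copy. It had 453, 272 and 511 counts in tdTom+ against 173, 307 and 185 counts in tdTom- replicates 1 to 3. Replicates 1 and 3 were high in tdTom+ and low in tdTom-, while both libraries numbered 2 lay between them, so the groups overlapped. The mean was 37.4 ± 11.6 CPM in tdTom+ against 21.1 ± 4.61 CPM in tdTom- cells (mean and SD, n = 3). The log2 difference of 0.82 ± 0.25 (SE) was not called by edgeR (adjusted p = 0.197), and its adjusted p ranged from 0.0563 to 0.626 over the alternatives.

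The Kcnq1ot1 transcript starts within an intron of Kcnq1 and runs against it, from 143296549 down to 143203458 on chromosome 7. The libraries do not mark strand, so reads of Kcnq1 introns cannot be told apart from Kcnq1ot1. Its start lies in the methylated control region of the cluster, and the bases just before it are shown because this is the element that the cluster's genes share. The sequence is RefSeq's, on GRCm38.p6, minus strand, chr7:143296550-143296797, read 5′ to 3′ toward the start, with CpG dinucleotides in capitals.
Kcnq1ot1 upstream: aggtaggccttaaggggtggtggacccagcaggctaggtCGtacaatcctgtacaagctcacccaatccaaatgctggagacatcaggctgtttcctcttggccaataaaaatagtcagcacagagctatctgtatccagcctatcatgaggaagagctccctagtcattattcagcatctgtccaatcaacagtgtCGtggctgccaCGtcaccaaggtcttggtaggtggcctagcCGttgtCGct
This stretch of 248 bases holds 5 CpG dinucleotides. The whole 300-base window at this start, which runs on into the transcript, holds 9, beside a median of 7 over all RefSeq promoter windows of that length.

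Phlda2, a pleckstrin homology gene that restrains placental growth, was too low to test, and its counts were far from even. It had 0, 1 and 1 counts in tdTom+ against 6, 11 and 64 counts in tdTom- replicates 1 to 3, so every tdTom- library lay above every tdTom+ library. The counts summed to 2 and 81, a ratio of 43.4 per total count (exact 95% counting interval 11.6 to 364). Without tdTom- replicate 3 the sums were 2 and 17 and the ratio was 12.8 (3.04 to 114). These intervals cover counting error only.

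In the authors' deposited table Phlda2 has a log2 difference of -5.56, turned here to tdTom+ over tdTom-, with an adjusted p of 0.00974. With edgeR and no filter on low counts it was not called (adjusted p = 0.0819). The hepatoblast markers were also highest in tdTom- replicate 3, the library with 64 of the 83 Phlda2 counts. They summed to 361 CPM there, to 157 and 162 CPM in the other tdTom- libraries and to 118 to 143 CPM in tdTom+ libraries. Trf made up most of each sum, with 114 to 129 CPM in tdTom+ and 133, 146 and 191 CPM in tdTom- replicates 1 to 3. Of the tested markers of this list, Trf alone had groups that did not overlap. None of the 7 tested hepatoblast genes out of 10 was called, and all 7 were below 0. Of the untested genes, Serpina1a had 2 counts in tdTom- replicate 3 and none elsewhere. Ahsg had 6 counts in tdTom+ replicate 3 and 2 in tdTom- replicate 3, and none elsewhere. Hnf4a had 0, 2 and 1 counts in tdTom+ against 9, 0 and 12 in tdTom- replicates 1 to 3. With the replicate block 1 of the 7 tested genes, Afp, the fetal serum protein gene, was called lower (log2 -2.44 ± 0.32, SE, edgeR adjusted p = 0.00204). The part of the hepatoblast markers in the Phlda2 counts, or in the Dlk1 difference below, was not tested.

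Slc22a18, a transporter-like gene of the same cluster, had 0, 21 and 18 counts in tdTom+ against 16, 28 and 35 in tdTom- replicates 1 to 3, and its groups overlapped. Ascl2, a transcription factor gene of the placenta, had 4, 0 and 7 counts in tdTom+ and none in tdTom- libraries. Per total count, its 11 counts are 3.42-fold a floor of 3 counts over the tdTom- group. This value leaves out the counting error of the 11 counts. With edgeR and no filter on low counts Ascl2 was not called (adjusted p = 0.490). The 6 trophoblast markers summed to 8.31 to 14.9 CPM in tdTom+ and 8.37 to 10.5 CPM in tdTom- libraries. Prl3d1 and Tpbpa were at 0 in all 6 libraries, and Gcm1 and Elf5 in the tdTom+ libraries. Prl3b1 had 151, 119 and 89 counts in tdTom+ against 55, 75 and 57 in tdTom- replicates 1 to 3, without overlap (log2 0.84 ± 0.32, SE, edgeR adjusted p = 0.323), and Hand1 had 0 to 22 counts in tdTom+ against 10 to 49 in tdTom- libraries. Their part in the Ascl2 counts was not tested.

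Dlk1 also differed without overlap (chromosome 12, 109452823 to 109463336, plus strand). It encodes a transmembrane protein related to Notch ligands that is abundant in embryonic mesenchyme and liver, and it is expressed from the paternal copy. It had 490, 248 and 339 counts in tdTom+ against 1814, 554 and 849 in tdTom- replicates 1 to 3, and on the CPM scale the groups did not overlap. The tdTom- libraries were spread widely, from 46.8 to 176 CPM, above 22.7 to 42.9 CPM in tdTom+ libraries. The mean was 32.4 ± 10.1 CPM in tdTom+ against 106 ± 65.1 CPM in tdTom- cells (mean and SD, n = 3).

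Without the pairing of libraries the Dlk1 difference did not pass, with a log2 difference of -1.70 ± 0.48 (SE, edgeR adjusted p = 0.205). With the replicate number as a block it passed, at -1.57 ± 0.18 (SE, edgeR adjusted p = 0.000865). The same-numbered libraries differed by log2 ratios of -2.03, -1.05 and -1.58. It also passed without tdTom- replicate 2 (-2.06, edgeR adjusted p = 0.0175), and without tdTom- replicate 1 it was at -1.12 (adjusted p = 0.254). The authors' deposited table gives -1.71 with an adjusted p of 0.0781. With the block, 2 of the 29 imprinted genes were called, Cdkn1c and Dlk1, both lower, where 2.24% of all tested genes were called, 1.27% as lower and 0.974% as higher.

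Mesenchymal markers also tended to lower values in tdTom+ libraries, without a call. The 16 mesenchyme and mural markers summed to 287, 186 and 724 CPM in tdTom+ and to 1269, 535 and 729 CPM in tdTom- replicates 1 to 3. tdTom- replicate 1, the highest for Dlk1, was also the highest for this list, and tdTom- replicate 2 was the lowest of its group for both. In tdTom+, replicate 2 was also the lowest for both, but the list was highest in replicate 3 and Dlk1 in replicate 1. Dlk1 had 42.9 CPM in tdTom+ replicate 1 and 31.6 CPM in tdTom+ replicate 3. tdTom+ replicate 3 lay above tdTom- replicate 2 for the list and below it for Dlk1. tdTom- replicate 1 was also the highest library for Cdkn1c, at 677 CPM. All 14 tested mesenchymal genes were below 0, none was called and none of the 16 was at 0 throughout. With the replicate block 1 of them, Lum, a proteoglycan gene of connective tissue, was called lower (log2 -1.24 ± 0.24, SE, edgeR adjusted p = 0.0213). Their part in the Dlk1 and Cdkn1c differences was not tested.

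**Figure D3:**
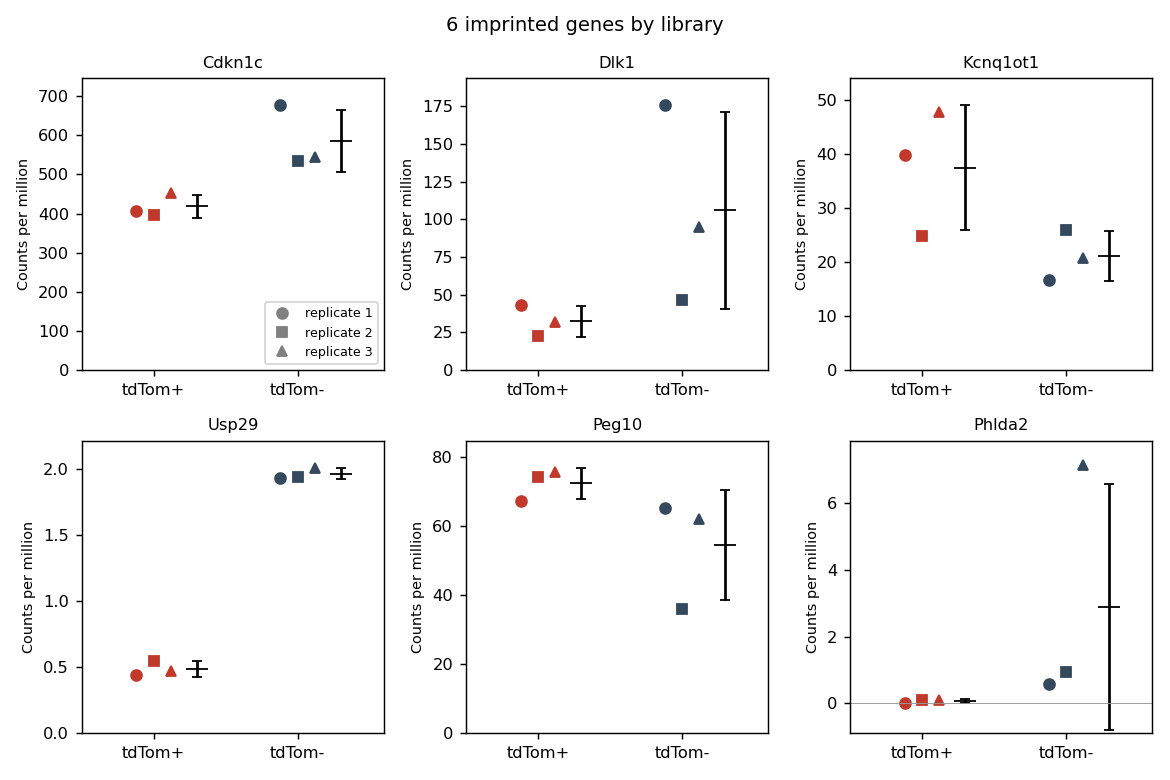
CPM in each library (y axis, linear) for Cdkn1c, Dlk1, Kcnq1ot1, Usp29, Peg10 and Phlda2, with the mean and SD of the 3 libraries of a group as a horizontal dash and bar. Cdkn1c and Usp29 separate with little spread, Dlk1 and Phlda2 separate with a wide spread in tdTom-, and Kcnq1ot1 overlaps.

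The maternally expressed non-coding RNAs that follow Dlk1 on chromosome 12 did not pass. Meg3 starts 77664 bases past the end of Dlk1. It had 261, 288 and 574 counts in tdTom+ against 499, 283 and 393 in tdTom- replicates 1 to 3, and the groups overlapped throughout that range. Its log2 difference was -0.18 ± 0.33 (SE, edgeR adjusted p = 0.918), and whether it differs from that of Dlk1 was not tested. Read counts of Meg3 per read of Dlk1 were 0.533, 1.16 and 1.69 in tdTom+ and 0.275, 0.511 and 0.463 in tdTom- libraries, which do not overlap.

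Rian, the host transcript of small nucleolar RNAs, had 11 to 55 counts in tdTom+ against 36 to 57 in tdTom- libraries. Mirg, the host of a large microRNA cluster, had 3 to 15 counts in a library and was too low to test. Of 57 microRNA hairpin genes annotated between Meg3 and the end of Mirg, 53 had a row in the count table, 11 of these had any count, and the highest count was 3. Several hairpin genes share exon bases with Meg3 or Mirg on the same strand, where reads of both cannot be told apart. Begain, a gene at the near side of Dlk1 that is imprinted in some tissues, had 2, 0 and 10 counts in tdTom+ against 36, 21 and 22 in tdTom- replicates 1 to 3. Its log2 difference of -2.77 ± 1.07 (SE) was not called by edgeR (adjusted p = 0.354).

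Igf2 and H19 on distal chromosome 7 overlapped between the fractions. Igf2 encodes the main fetal insulin-like growth factor and is paternal, and H19 is a maternal non-coding RNA that competes for the same enhancers. Igf2 had 1165 ± 91.6 CPM in tdTom+ against 1263 ± 39.9 CPM in tdTom- cells (mean and SD, n = 3). H19 had 1151 ± 193 and 1246 ± 216 CPM (SD, n = 3). The log2 differences were -0.12 ± 0.07 and -0.11 ± 0.13 (SE, edgeR adjusted p = 0.627 and 0.857), and neither passed.

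H19 reads per Igf2 read were 0.889, 0.950 and 1.12 in tdTom+ and 0.878, 0.915 and 1.16 in tdTom- replicates 1 to 3. The group means were 0.985 ± 0.118 and 0.985 ± 0.155 (SD, n = 3), and in both groups the library numbered 3 was the highest. H19 holds the microRNA gene Mir675 in its exon, which had 0 counts in all libraries. Of the merged exon bases of Igf2, 62.8% also belong to an annotated read-through transcript that has no row in the count table.

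Igf2r, the maternally expressed receptor that carries IGF2 to the lysosome, had 128 ± 18.1 CPM in tdTom+ against 153 ± 31.0 CPM in tdTom- cells (mean and SD, n = 3). Airn, the paternal non-coding RNA that starts inside Igf2r and runs against it, had 90 to 154 counts in a library. The log2 differences were -0.26 ± 0.15 for Igf2r and -0.16 ± 0.27 for Airn (SE), and neither passed. Igf2r reads per Airn read were 9.01 to 16.4 in tdTom+ libraries, and all 3 tdTom- libraries lay within that range. The library kit does not mark strand, so reads of an intron of Igf2r and of Airn cannot be told apart where they overlap.

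Peg3 and Usp29 start head to head on proximal chromosome 7 and are both paternal, but their levels differed widely. Peg3, a zinc finger gene, had 1399, 1551 and 1511 counts in tdTom+ against 1403, 2148 and 1209 in tdTom- replicates 1 to 3, with overlapping groups. Usp29, a ubiquitin protease gene, had 5, 6 and 5 counts in tdTom+ against 20, 23 and 18 in tdTom- libraries, which did not overlap. Its fold change was -1.99 ± 0.77 on the log2 scale (SE) and did not pass (edgeR adjusted p = 0.35). The size was from -2.09 to -1.93 under the alternatives, and the adjusted p was from 0.297 to 0.800.

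Peg3 reads per Usp29 read were 280, 259 and 302 in tdTom+ and 70.2, 93.4 and 67.2 in tdTom- replicates 1 to 3. Peg3 itself had a log2 difference of -0.16 ± 0.13 (SE, edgeR adjusted p = 0.745), and -0.0055 without tdTom- replicate 2. Germ cell markers were likewise near 0 in tdTom+ libraries. The 9 markers summed to 2.72 to 3.17 CPM in tdTom+ and 51.6 to 97.9 CPM in tdTom- libraries, 4 of the 6 tested were called lower, and Dazl, Dppa3, Pou5f1 and Mael were at 0 in all tdTom+ libraries. With the block 5 of the 6 were called lower. The sort required PECAM1 and kept cells without KIT. How many germ, mesenchymal, liver or neural cells passed it was not tested. The part of the germ cell markers in the level of Usp29 or any other imprinted gene was not tested.

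The stretch between the RefSeq starts of Peg3 and Usp29 is shown because both genes are read outward from it. It is 96 bases long on GRCm38.p6, chr7:6730463-6730558, printed on the plus strand, in the direction of Usp29, with CpG dinucleotides in capitals.
Peg3-Usp29 gap: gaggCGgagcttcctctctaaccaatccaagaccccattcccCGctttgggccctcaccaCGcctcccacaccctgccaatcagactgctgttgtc
The gap holds 3 CpG dinucleotides, with a share of G and C of 60.4%. Zim1, the maternal zinc finger gene of the same locus, had 4, 0 and 12 counts in tdTom+ against 7, 13 and 17 in tdTom- replicates 1 to 3, and the groups overlapped.

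Peg10 and Sgce also start head to head, 98 bases apart on chromosome 6, and both are paternal. Peg10, a gene derived from a retrotransposon and needed for the placenta, had 67.2, 74.2 and 75.7 CPM in tdTom+ and 65.3, 36.0 and 62.1 CPM in tdTom- replicates 1 to 3. The groups did not overlap, but by a narrow gap between 67.2 and 65.3 CPM. The log2 difference of 0.41 ± 0.20 (SE) was not called by edgeR (adjusted p = 0.514) and was 0.18 without tdTom- replicate 2, the lowest library.

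Sgce, which encodes a sarcoglycan of the plasma membrane, overlapped between the groups at 114 ± 4.32 and 112 ± 7.92 CPM (SD, n = 3). Peg10 reads per Sgce read were 0.634 ± 0.0621 in tdTom+ and 0.486 ± 0.149 in tdTom- cells (SD, n = 3), and the groups overlapped. Of the maternal genes of this cluster, Asb4, an ankyrin repeat gene of the vascular lineage, was the most abundant at 423 ± 15.2 and 431 ± 31.1 CPM (SD, n = 3). Its log2 difference was -0.03 ± 0.07 (SE, edgeR adjusted p = 0.94). Ppp1r9a, which encodes an actin-binding phosphatase subunit, had 45.6 ± 6.06 and 36.9 ± 3.01 CPM, with overlapping groups.

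**Figure D4:**
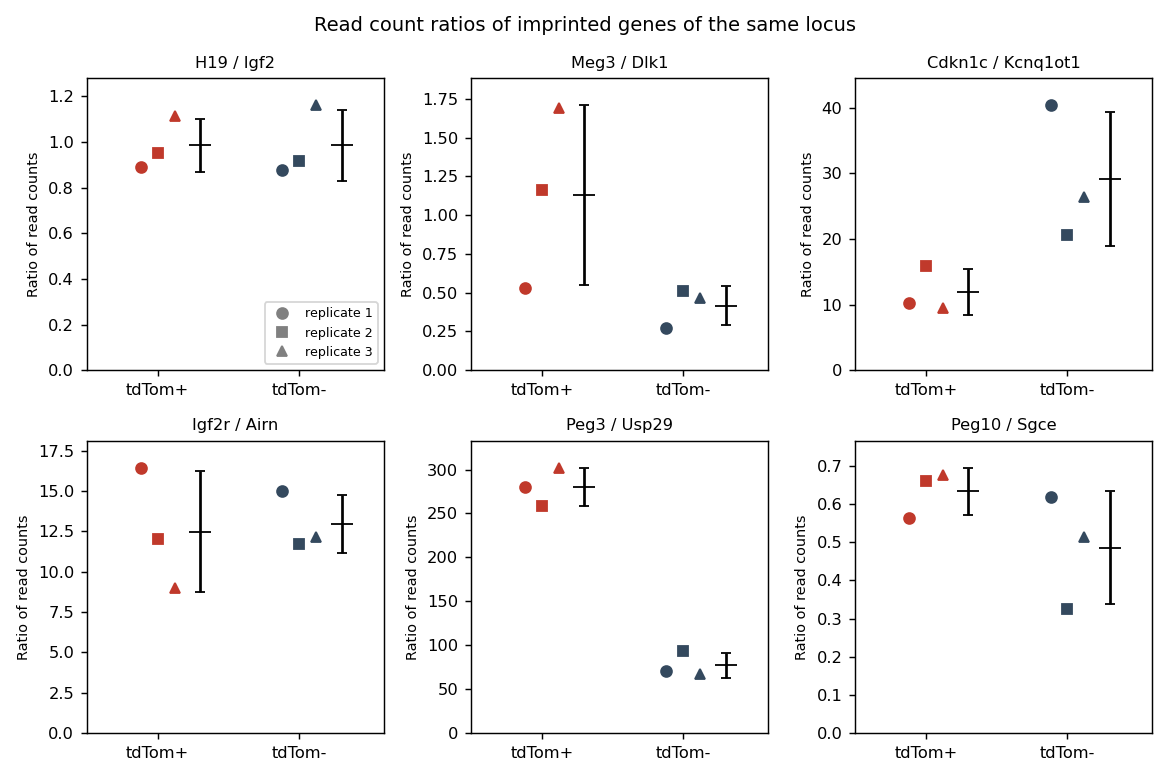
Ratio of read counts of 2 imprinted genes of the same locus in each library (y axis, linear from 0; no length correction), with the mean and SD of each group as a dash and bar. H19 per Igf2 and Igf2r per Airn overlap between the groups, while Meg3 per Dlk1, Cdkn1c per Kcnq1ot1 and Peg3 per Usp29 do not.

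Cdkn1c reads per Kcnq1ot1 read were 10.3, 15.9 and 9.48 in tdTom+ and 40.4, 20.6 and 26.4 in tdTom- replicates 1 to 3, without overlap. Cdkn1c by itself did not overlap either, while Kcnq1ot1 by itself did. Each ratio of a pair that did not overlap holds a gene that already did not overlap by itself, namely Cdkn1c, Dlk1 or Usp29. These ratios combine values given above and were not tested.

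In the Snrpn-Ube3a cluster on central chromosome 7, the region of the Prader-Willi and Angelman syndromes, no gene passed. Ndn, a growth-restraining MAGE family gene, had 139 ± 11.6 and 140 ± 12.5 CPM (SD, n = 3). Ube3a, a ubiquitin ligase gene imprinted in neurons, had 95.1 ± 11.9 and 98.7 ± 3.77 CPM (SD, n = 3). The groups overlapped for both. Peg12, an intronless paternal gene, had 72 to 137 counts in a library.

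Magel2, another MAGE family gene, varied widely among the tdTom+ libraries, with 87, 18 and 186 counts, beside 54, 41 and 39 in tdTom- replicates 1 to 3. Its log2 difference of 1.03 ± 0.65 (SE) was not called by edgeR (adjusted p = 0.658) and was 0.094 without tdTom+ replicate 3, the highest library. Snrpn, which encodes a splicing protein, had at most 5 counts in a library. Its exons share bases with those of Snurf, 216 bases in all, and Snurf had a row of its own with 0 counts. The part of this overlap in the low count was not tested.

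Mest, the paternally expressed gene of a hydrolase-like protein of the mesoderm, had the most counts of the 34 genes. It had 48187, 47113 and 44461 counts in tdTom+ against 42984, 48977 and 37896 in tdTom- replicates 1 to 3. Scaled by library size it was among the steadiest values, at 4227 ± 78.8 and 4180 ± 49.9 CPM (SD, n = 3), a log2 difference of 0.02 ± 0.05 (SE, edgeR adjusted p = 0.95). Per kilobase of merged exons it reached 1066 CPM, the fifth highest level of 21737 genes with a length. The antisense gene Copg2 shares 23.1% of the merged exon bases of Mest, where reads of both cannot be told apart. H19 followed at 487, Gnas at 274, Cdkn1c at 246 and Igf2 at 212 CPM per kilobase.

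The bases before a RefSeq start of Mest are shown because Mest was the most abundant gene of the set. This promoter is known to be methylated on the maternal copy. Counts per gene do not tell which start was used in these cells, and methylation was not measured. The bases are RefSeq's on GRCm38.p6, chr6:30737800-30738049, plus strand. Capitals mark CpG dinucleotides and the hexamer TGCCGC on either strand, the letters that the imprint-protecting factor ZFP57 is known to bind when methylated.
Mest upstream: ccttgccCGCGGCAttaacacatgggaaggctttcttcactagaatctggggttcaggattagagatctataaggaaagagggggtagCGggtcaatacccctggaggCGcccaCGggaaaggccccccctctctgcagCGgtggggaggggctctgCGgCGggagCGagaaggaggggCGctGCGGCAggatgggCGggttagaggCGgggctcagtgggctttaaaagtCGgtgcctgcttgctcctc
These 250 bases hold 14 CpG and 2 copies of the hexamer. RefSeq promoter windows of 300 bases were matched for 29 of the 34 imprinted genes, 46 windows in all, some of which overlap. The hexamer was in 9 of the 46, or 19.6%, and in 11.6% of all 32851 windows. The median number of CpG was 10.5 in the windows of imprinted genes and 7 in all windows. A match describes the letters and does not show binding.

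Gnas, which encodes the stimulatory G protein alpha subunit and several imprinted variants, was the third most abundant gene by mean CPM in the table. It had 3205 ± 105 CPM in tdTom+ against 2916 ± 258 CPM in tdTom- cells (mean and SD, n = 3), a log2 difference of 0.14 ± 0.07 (SE, edgeR adjusted p = 0.534). The counts join all its variants, and part of its exons overlaps the antisense gene Nespas. Grb10, an adaptor that dampens insulin and growth factor signalling, had 785 ± 62.3 and 800 ± 93.1 CPM (SD, n = 3). Plagl1, a zinc finger transcription factor that regulates other imprinted genes, had 441 ± 17.1 and 474 ± 76.0 CPM (SD, n = 3). The groups overlapped for both, with log2 differences of -0.03 ± 0.09 and -0.10 ± 0.10 (SE).

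The remaining genes with a locus of their own are all paternal, and none passed. Nnat, a small membrane protein gene abundant in neural tissue, had a log2 difference of -0.24 ± 0.12 (SE, edgeR adjusted p = 0.526). Impact, a translational regulator, had 312, 149 and 190 counts in tdTom+ against 268, 318 and 274 in tdTom- replicates 1 to 3, and overlapped, with tdTom+ replicate 1 among the tdTom- libraries. Slc38a4, an amino acid transporter gene, had 110 ± 28.5 and 121 ± 6.55 CPM (SD, n = 3), with the tdTom- libraries inside the tdTom+ range. Zrsr1, a splicing factor gene that lies within Commd1, had 20 to 36 counts in a library. Commd1 exons on the opposite strand share 9.2% of its merged exon bases, where reads of both cannot be told apart. The 10 neural markers summed to 60.1 to 74.3 CPM in tdTom+ and 91.3 to 108 CPM in tdTom- libraries. All 10 were tested, 8 were below 0 and none was called, and their part in the Nnat values was not tested.

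**Figure D5:**
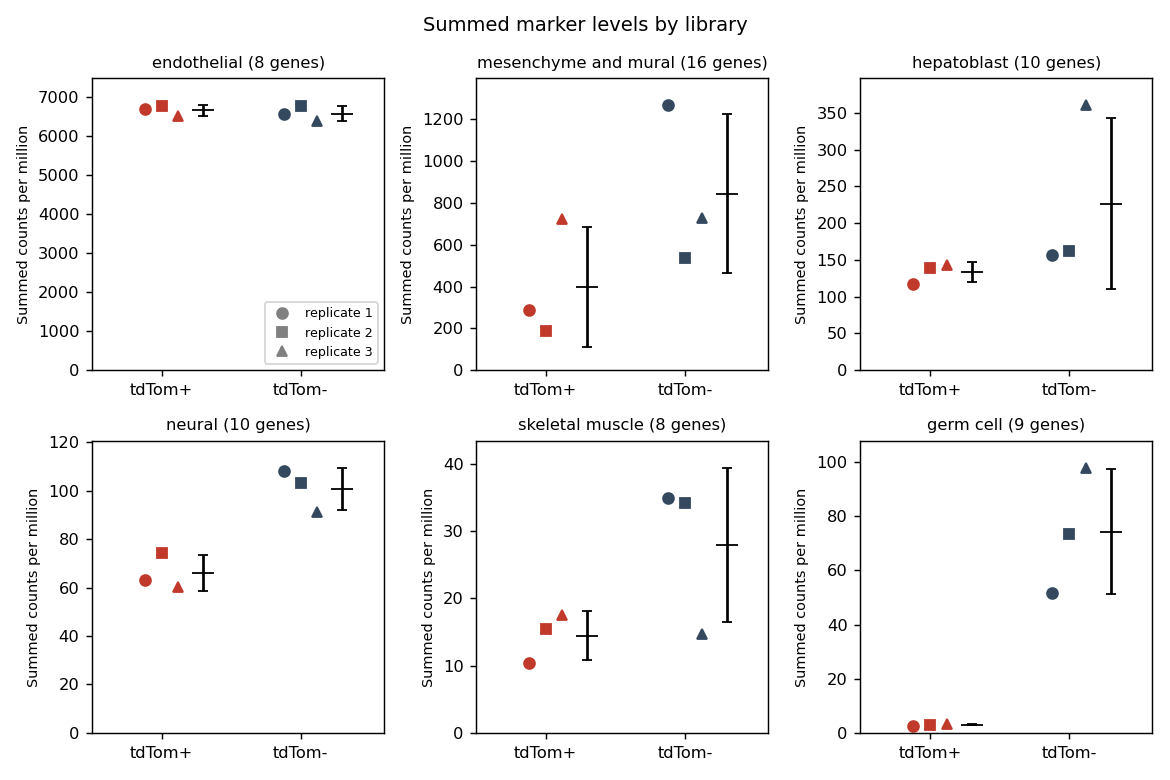
Summed CPM of marker genes of 6 cell types in each library (y axis, linear), with the mean and SD of each group as a dash and bar. Endothelial markers lie at 6381 to 6774 CPM, and mesenchymal markers are highest in tdTom- replicate 1. The germ cell, neural and hepatoblast sums are lower in every tdTom+ library than in any tdTom- library.

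Spread between libraries differed among the imprinted genes. For the 22 with a mean of at least 10 CPM, the median coefficient of variation was 8.19% in tdTom+ and 12.4% in tdTom- libraries, beside 12.7% and 8.97% over the 9652 tested genes above the same limit. The levels of these sets differ, as 14 of the 22 had a mean of at least 100 CPM, beside 2820 of the 9652. Mest, at 1.86% and 1.19%, was the steadiest of the 22, and Dlk1 in tdTom- libraries, at 61.5%, the least steady.

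Other genes imprinted in at least some mouse tissues, from a list that was chosen with earlier results of these data known, also showed no call. Of the 37, 35 were in the table and 27 were tested; 0 passed with edgeR, limma-voom or DESeq2, and 3 had an unadjusted edgeR p under 0.05. These were Tspan32, a tetraspanin gene near the Kcnq1ot1 cluster, Tfpi2, a protease inhibitor gene near Peg10, and Begain. Tspan32 had 109, 221 and 67 counts in tdTom+ against 52, 32 and 43 in tdTom- replicates 1 to 3, which did not overlap, with a log2 difference of 1.52 ± 0.47 (SE, edgeR adjusted p = 0.192). Tspan32 is known from blood cells, and the 8 megakaryocyte markers summed to 236 to 459 CPM in tdTom+ and 25.8 to 41.7 CPM in tdTom- libraries, with 5 of 8 called higher and all 8 with the block. Their part in it was not tested.

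Tfpi2 had a log2 difference of 0.52 ± 0.19 and Osbpl5, a lipid transfer gene of the Kcnq1ot1 cluster, one of -0.31 ± 0.17 (SE, edgeR adjusted p = 0.324 and 0.574). The median of the 27 was -0.04.

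Genes that act on imprints or on DNA methylation, by adding, keeping or removing it, were mostly present in both fractions, and none passed. Of 16 listed, 14 were tested, 0 passed with edgeR, limma-voom or DESeq2, and 0 had an unadjusted edgeR p under 0.05. Their log2 differences ran from -0.45 for Tet1, an enzyme that oxidises methylated cytosine, to 0.33 for Zfp57. Uhrf1, which brings the methyltransferase DNMT1 to replicated DNA, was at -0.14 ± 0.08, and Ctcf, which insulates Igf2 on the maternal copy, at -0.20 ± 0.10 (SE). Dnmt3l and Ctcfl, which act mainly in germ cells, had 0 counts in all 6 libraries.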

How the data were processed

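RNA of sorted cells was extracted with the RNeasy Micro Kit, amplified with SMART-seq v4 and made into libraries with Nextera XT, per the labels' protocols. The submitters' processing notes name the mm10 build, featureCounts 1.4.6, Picard 2.7.1.1, DESeq2, STAR 2.5.2b and Trimmomatic 0.36.4, without their roles. The count values are whole-number reads per gene as deposited by the authors, without normalization; there are no molecular identifiers. The authors' log2 fold changes and adjusted p-values are as deposited, in the direction tdTom- over tdTom+, and were turned round where printed. The 6 normalized columns were not used.

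Groups came from the sample titles. The test was edgeR 4.0.16 (R 4.3.3): TMM, filterByExpr set to 10 counts, and a robust quasi-likelihood fit with no block. P-values of 13142 genes were adjusted by Benjamini-Hochberg, with 0.05 as the threshold, and the procedure was tested on simulated data. SE was taken as the size of the log2 difference over the root of its F statistic. Alternatives were DESeq2 1.42.0, limma-voom (limma 3.58.1), library size alone, 2 other filters, the replicate block and leaving out each library. Libraries of a group differed by more than sampling noise (mean chi-square per gene 8.02 to 19.3).

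Deviations from the group means of log2(CPM + 1) correlated at 0.12, 0.091 and 0.17 for same-numbered libraries and at -0.173 to 0.0652 for the others. One of these is below 0.1, but the protocol describes both fractions as sorted from the same 3 embryos, and the sex of the cells matched by number, so the numbers may pair the libraries. The reported tests have no block, and the blocked value is printed where it changes a call. Positions and exon lengths are GENCODE M21 (GRCm38, the same assembly as mm10); the sources used here do not name the annotation behind the counts. Sequences are RefSeq's, GRCm38.p6. The rule for named genes took every imprinted gene of the set. Of the other imprinted genes and the imprint and methylation genes, it took those that passed or up to 4 with the smallest p. The genes and lists were chosen with earlier results of these data known. Marker lists were endothelial, mesenchyme and mural, hepatoblast, neural, skeletal muscle, germ cell, trophoblast, megakaryocyte, erythroid and macrophage. Those not described elsewhere summed, in tdTom+ and tdTom- libraries, to 10.4 to 17.6 and 14.6 to 35.0 CPM (skeletal muscle), 160 to 235 and 129 to 232 CPM (erythroid), and 73.6 to 132 and 35.6 to 51.2 CPM (macrophage). Mrc1 made up most of each macrophage sum, with 58.7 to 110 CPM in tdTom+ and 24.8 to 33.5 CPM in tdTom- libraries. Of the 5 tested macrophage markers, Mrc1 was the 1 called, 3 had a log2 difference above 0 and 2 below.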

Additional observations from a re-analysis of the deposited data

How the results depend on the processing

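Leaving out a library moved the whole-table counts to between 37 and 97 genes higher and 25 and 92 lower in tdTom+, from 101 and 107; DESeq2 gave 217 and 267, DESeq2 without a filter (added after seeing the data) 211 and 291, and the replicate block 128 and 167. The number of imprinted genes called lower was 2 with the block, 2 with DESeq2 without a filter (Cdkn1c and Phlda2), and 0 to 1 when a library was left out. Without tdTom- replicate 2 the 1 called was Dlk1 and not Cdkn1c. It was 1, Cdkn1c, in each setting not named here, and none was called higher in any setting. The cause of these shifts was not tested, except that fewer libraries enter the fits that leave one out. The pairing block changed the call of Dlk1 (-1.57) and of no other tested imprinted gene.

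Of 373 comparisons of an imprinted gene with an alternative, 344 kept direction and call, and 17 of the 29 genes never changed sign. The 12 that did were not called and had log2 fold changes of at most 0.44 in size. When a library was left out, they ran from -0.23 to 0.035 (H19), -0.65 to 0.046 (Meg3), -0.85 to 0.00076 (Rian), -0.016 to 0.079 (Sgce), -0.085 to 0.011 (Asb4), -0.30 to 0.17 (Peg12), -0.071 to 0.073 (Ndn), -0.16 to 0.0069 (Ube3a), -0.19 to 0.032 (Plagl1), -0.093 to 0.074 (Grb10), -0.00014 to 0.35 (Zrsr1) and -0.35 to 0.026 (Slc38a4). Ndn was also at -0.0101 with library size alone, -0.0012 without a filter and -0.00031 with the stricter filter. Of the genes that kept their sign, leaving out 1 library moved several by over 1.5 times. Airn moved to -0.010, Igf2 to -0.056, Impact to -0.83 and Slc22a18 to -0.53 without tdTom+ replicate 1. Impact moved to -0.30 and Mest to 0.0014 without tdTom+ replicate 2, and Zim1 to -2.70 without tdTom+ replicate 3. Igf2r moved to -0.11 and Nnat to -0.12 without tdTom- replicate 1. Gnas moved to 0.064 and Mest to 0.0079 without tdTom- replicate 2. Usp29, Slc22a18 and Zim1 had at most 35 counts in a library, which limits what their fold changes can show.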
